A study of Danio rerio with 6 samples.

Results

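Zebrafish carry 2 fibronectin 1 genes, fn1b (ENSDARG00000006526) and fn1a (ENSDARG00000019815), and these are the 2 members described here, of 29978 genes listed. They were taken from the gene name given for each row, and each name matched a single row. Embryonic hearts were dissected 56 and 48 hours post fertilization (hpf), when the atrioventricular valve starts to form, and RNA sequencing was run on 3 pools of hearts at 56 hpf and 3 pools at 48 hpf. All pools are labelled "con", and with no mutant or treated group the 2 stages are the only comparison. The labels give the AB line and amplified cDNA from total RNA, while the study's methods give Tg(myl7:EGFP) embryos, in which the myl7 promoter marks the myocardium with GFP, and mRNA selected on oligo-dT. The pools are whole dissected hearts, so the atrioventricular canal (AVC) and its endocardial cells were not separated from the rest. The titles also carry a second code whose meaning no source gives, part of which replicate 3 at 56 hpf shares with replicate 1 at 48 hpf, so whether equal replicate numbers mark a shared experiment is not known.

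Fibronectin is a secreted glycoprotein that dimerizes, is bound by integrins on the cell surface and is assembled by them into fibrils, on which cells attach and migrate. In zebrafish, fn1a is needed for the migration of myocardial precursors to the midline, and fn1a and fn1b act together at somite boundaries. The paralogs are separate genes that encode the same kind of protein, so a change in one can leave the other, and the balance between them, in a different state. The comparison between stages asks which of the paralogs accompanied the onset of valve formation.

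The libraries held 14369087 to 26942838 counted reads. Heart markers were present at both stages: myl7, a cardiac myosin light chain, had 48366, 46729 and 49857 normalized counts at 56 hpf (replicates 1, 2 and 3, in that order here and throughout), against 34100, 84504 and 103877 at 48 hpf. A normalized count is the number of reads divided by the size factor of the library. Markers of epidermis were present in all pools, and 12 of the 13 in the list had a higher fitted level at 56 hpf. Among the 48 hpf pools, replicate 1 had the lowest myocardial sum (261865, against 586789 and 705450 in replicates 2 and 3). Their epidermal sums fell from replicate 1 to replicate 3 (468179, 366134 and 184674). Replicate 2 was low in liver and yolk genes at both stages. Values of fn1b, fn1a and their shares are given with and without a replicate, as are many of the counts over lists that leaving it out moved.

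fn1b was higher in every 56 hpf pool than in any 48 hpf pool, whereas the pools of fn1a overlapped between the stages. The 56 hpf pools of fn1b had 85122, 135412 and 166889 normalized counts, against 36381, 22128 and 16822 at 48 hpf. The lowest 56 hpf pool, replicate 1, was still well above the highest 48 hpf pool, also replicate 1. The means were 129141 ± 41242 at 56 hpf and 25110 ± 10115 at 48 hpf (SD, n = 3 pools each), a 5.14-fold difference of means.

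In the fit over all 20805 genes that passed the filter on low counts (limma on log2 of the normalized count plus 1, with the replicate number as a block), the log2 fold change of fn1b was 2.38 with a standard error of 0.49 and a 95% interval of 1.21 to 3.56, which is 2.32-fold to 11.8-fold. Its p was 0.00204 before adjustment and 0.0809 after Benjamini-Hochberg adjustment over all genes tested, so it did not pass the threshold of 0.05 in this fit. In the same fit 1.08% of the genes tested passed (225 genes), 0.87% as higher (181 genes) and 0.211% as lower at 56 hpf (44 genes), and 18.6% had an unadjusted p under 0.05. With the block, 2035 genes passed in all without replicate 1, 26 without replicate 2 and 550 without replicate 3. Those fits leave few pools to estimate the spread of each gene, so they lean heavily on the spread shared over all genes. Counts over lists in those fits are to be read beside these numbers. Without the block the adjusted p of fn1b was 0.0210 from limma, where 2.69% of genes passed. On the recovered reads with the block, the quasi-likelihood test of edgeR gave an adjusted p of 0.0957 with 0.75% of genes past the threshold. The likelihood ratio test of edgeR gave 3.22e-05 with 8.37% past it, and DESeq2 gave 7.79e-09 with 7.22% past it. The size of the change hardly moved between these tests, and the side of the threshold did. The study, which used edgeR with adjustment for differences between experiments, reported fn1b as significantly higher at 56 hpf. It also reported a rise by qPCR of heart RNA and further enrichment of fibronectin protein in the AVC by immunofluorescence. No source says whether the 3 pools of a stage came from separate clutches, so these p-values measure the spread between these pools.

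The replicates of fn1b differed from each other more than those of most genes of high count. On the log2 scale its SD was 0.50 at 56 hpf and 0.56 at 48 hpf, and of the 3109 genes with a mean normalized count of at least 1000, 11.9% had a larger SD at 56 hpf and 13.7% at 48 hpf. The differences between same-numbered pools were 1.23, 2.61 and 3.31 on the log2 scale for replicates 1, 2 and 3. The smallest came from replicate 1, which had the least fn1b of the 56 hpf pools and the most of the 48 hpf pools. With 3 pools against 3, a two-sided exact permutation test of the means gave p = 0.1, the smallest that it allows. Of all genes tested, 24.4% had pools that did not overlap between the stages, with 13.1% higher at 56 hpf and 11.3% lower, so a lack of overlap alone was common in these libraries.

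**Figure D1:**
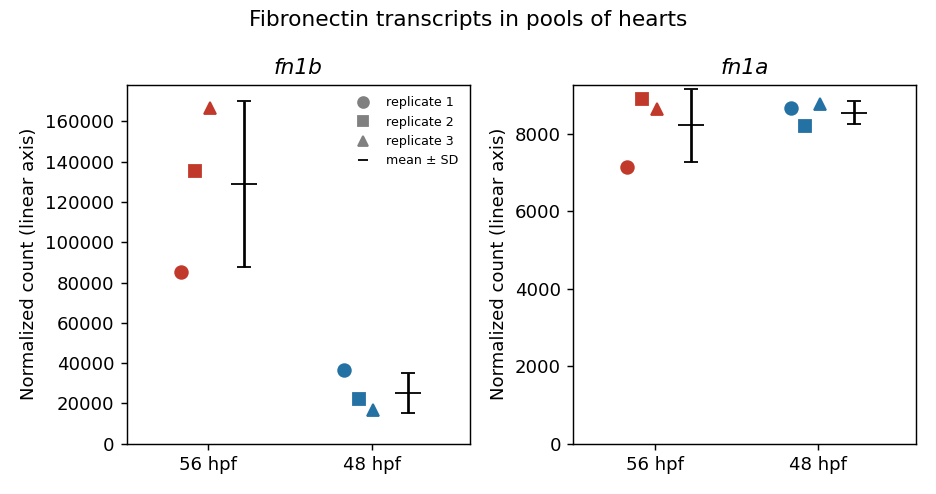
Normalized counts (reads divided by size factor, linear axes from 0) of fn1b and fn1a in each pool, with 56 hpf to the left of 48 hpf, the replicate number by marker shape and the mean ± SD of 3 pools in black. The 56 hpf pools of fn1b lie between 85122 and 166889, above the 48 hpf pools at 16822 to 36381, while the pools of fn1a overlap.

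The 56 hpf pools of fn1a had 7149, 8890 and 8631 normalized counts, against 8665, 8203 and 8768 at 48 hpf. The ranges overlapped, and the 56 hpf pool was the higher one in 1 of the 3 same-numbered pairs. The means were 8224 ± 939 at 56 hpf and 8545 ± 301 at 48 hpf (SD, n = 3 pools each). The log2 fold change was -0.06 with a standard error of 0.22 (adjusted p = 0.910, limma), and its 95% interval of -0.59 to 0.47 leaves room for a fold change between 0.665 and 1.38. The exact permutation test gave p = 0.8. A change of the size seen for fn1b lies outside this interval, and the sign of the small fn1a change depended on the scaling, as it was 0.07 on the scale deposited by the authors. At 48 hpf the 3 pools of fn1a were close together, with an SD of 0.05 on the log2 scale, and 96.2% of the 3109 genes with a mean of at least 1000 had a larger one. The 48 hpf pools that differed widely in fn1b, in myocardial sum and in epidermal sum thus had nearly the same level of fn1a.

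The paralog balance was taken within each library as the share of fn1b in the sum of fn1b and fn1a reads, which does not depend on any size factor. It is a share of reads and not of molecules, since the lengths of the transcripts were not used, and because only uniquely aligned reads were counted, stretches that the paralogs share would be missing from both. The share was 92.3%, 93.8% and 95.1% in replicates 1, 2 and 3 at 56 hpf, against 80.8%, 73.0% and 65.7% at 48 hpf. Every 56 hpf pool exceeded every 48 hpf pool, and the 48 hpf pools were the more widely spread. The exact (Clopper-Pearson) 95% intervals were narrow, from 92.1% to 92.4% in the 56 hpf pool with the lowest share and from 80.3% to 81.2% in the 48 hpf pool with the highest share. They rest on 6499 to 11552 reads of fn1a and 13248 to 200544 reads of fn1b and cover counting error only.

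The mean share was 93.7% ± 1.42 at 56 hpf and 73.2% ± 7.52 at 48 hpf (SD, n = 3 pools each), a difference of 20.6 percentage points, with p = 0.1 in the two-sided exact permutation test, again the smallest it allows. Leaving out 1 pool at a time gave differences of 16.9 to 24.4 points, the highest without replicate 1 at 48 hpf. Same-numbered pools differed by 11.5 to 29.3 points, all in the same direction. Expressed as a ratio, there were 11.9, 15.2 and 19.3 fn1b reads for each fn1a read in replicates 1, 2 and 3 at 56 hpf, against 4.20, 2.70 and 1.92 at 48 hpf. The mean log2 ratio was 3.93 ± 0.35 at 56 hpf and 1.48 ± 0.57 at 48 hpf (SD, n = 3 each), and the difference of 2.44 was close to the change of fn1b alone.

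**Figure D2:**
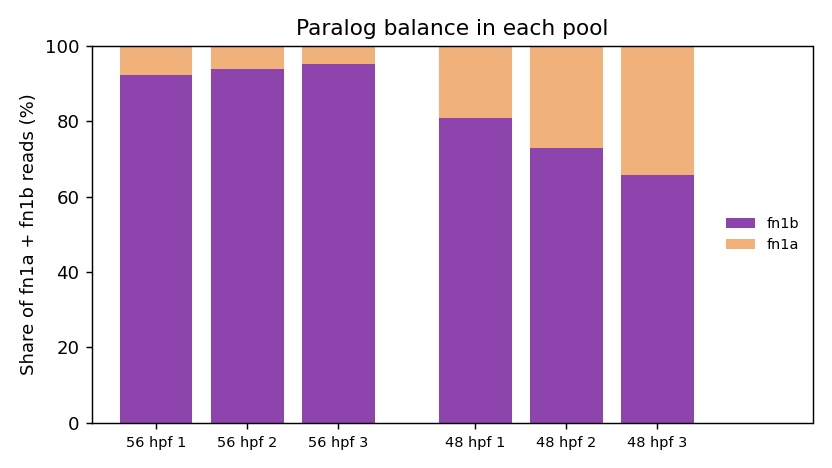
Share of fn1b (purple) and fn1a (orange) in the reads of both genes, in percent, for each of the 6 pools, 56 hpf on the left and 48 hpf on the right. The fn1b share is 92.3% to 95.1% in the 56 hpf pools and 65.7% to 80.8% in the 48 hpf pools.

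The summed level of both paralogs followed fn1b. It was 92272, 144302 and 175520 normalized counts at 56 hpf, against 45046, 30331 and 25589 at 48 hpf. No 56 hpf pool reached down to a 48 hpf pool. The means were 137364 ± 42056 at 56 hpf and 33655 ± 10145 at 48 hpf (SD, n = 3 each), 4.08-fold apart, with p = 0.1 in the exact permutation test. On the deposited scale the means were 4.46-fold apart, and there the median change over the genes tested was 0.11 on the log2 scale, against -0.01 with the factors drawn here.

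Among the 160 genes tested with a mean normalized count of at least 10000, fn1b had the fourth largest log2 fold change, at 2.38, against a median of 0.11. The 3 genes above it were CR759920.1 with 2.45, si:dkey-9l20.3 with 2.41 and CR759920.2 with 2.41, and the next below it was krt5, a keratin of the epidermis, with 2.14. Of these 160 genes 3 passed the adjusted threshold. Among all genes tested, 98.4% had a smaller log2 fold change than fn1b, and 524 genes had a smaller p.

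**Figure D3:**
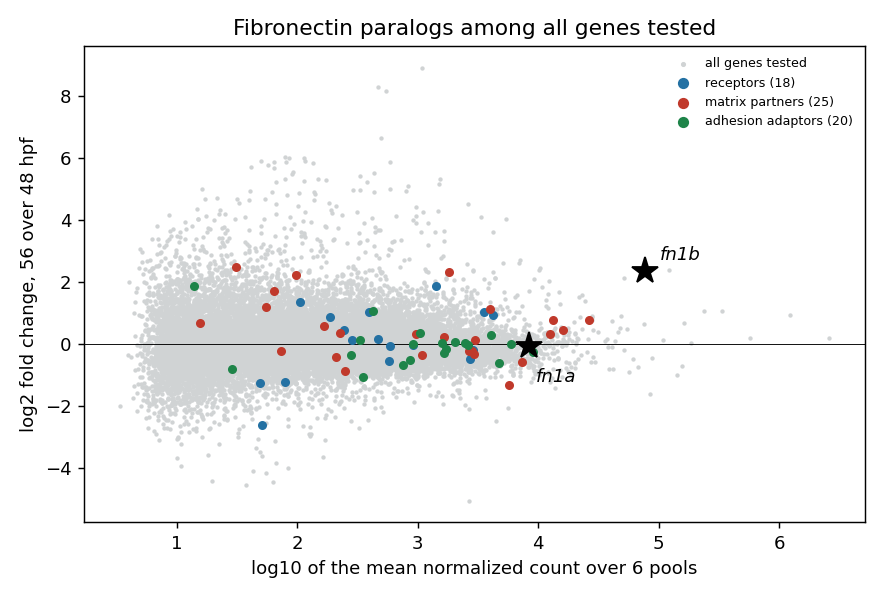
Mean normalized count over the 6 pools (log10 axis values) against the log2 fold change of 56 over 48 hpf for the 20805 genes tested (grey), with fn1b and fn1a as stars and members of 3 gene lists in colour. fn1b lies at a log2 fold change of 2.38 at the high end of the count axis, fn1a lies at -0.06, and list members spread to both sides of 0.

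Integrins are the receptors through which cells bind fibronectin and pull it into fibrils. Of the 18 integrin genes reported to pair in fibronectin receptors, all were tested and none passed the adjusted threshold in limma with the block, against 1.08% of all genes. At an unadjusted p under 0.05, 6 were higher and 5 lower at 56 hpf, against 11.1% higher and 7.42% lower among all genes. Without the block limma called 1 member (itgb3a), the quasi-likelihood test with the block called 0, the likelihood ratio test and DESeq2 called 4 each, and over all alternatives the number ran between 0 and 6, the highest without replicate 1. Their median log2 fold change was 0.07, against -0.01 for all genes.

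The integrin gene with the most reads was itgav, the alpha v subunit, with 3693, 6010 and 6979 normalized counts at 56 hpf, against 4154, 2773 and 1847 at 48 hpf (log2 fold change 0.95, SE 0.38, adjusted p = 0.247). Replicate 1 at 48 hpf lay inside the 56 hpf range. The beta 1 gene itgb1b.1 had 3265, 5395 and 5125 at 56 hpf, against 3562, 2780 and 1062 at 48 hpf (1.03, SE 0.42, adjusted p = 0.253), again with an overlap from replicate 1. itga3b, an alpha 3 subunit, had 2342, 3055 and 2704 at 56 hpf, against 2752, 2969 and 3475 at 48 hpf, a log2 fold change of -0.18 (SE 0.19, adjusted p = 0.650). Several itgb1b copies are listed separately, and reads that fit more than 1 of them were not counted, so their levels are uncertain.

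A pair of further receptor genes was chosen after their values were seen. itgb3a, which encodes a beta 3 subunit that pairs with alpha v, had 1518, 2578 and 2523 normalized counts at 56 hpf, against 815, 518 and 476 at 48 hpf. The stages did not overlap, and its log2 fold change was 1.87 (SE 0.32) with an adjusted p of 0.0571 in limma with the block, 0.0146 without the block and 4.90e-05 in the likelihood ratio test. itga5, the alpha subunit of the classical fibronectin receptor alpha 5 beta 1, had 2427, 2744 and 2335 at 56 hpf, against 2483, 2906 and 4085 at 48 hpf (-0.31, SE 0.23, adjusted p = 0.508), and its stages overlapped.

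Matrix proteins and syndecans that bind fibronectin, or that depend on it for assembly, formed the next list. Of its 27 symbols 23 were found, as 25 gene rows, and all 25 were tested. None passed the adjusted threshold in limma with the block, 4 were higher and 3 lower at an unadjusted p under 0.05, against 11.1% and 7.42% of all genes, and the median log2 fold change was 0.35. Without the block limma called 1, the quasi-likelihood test with the block 0, the likelihood ratio test 4 and DESeq2 5. Without replicate 1 at both stages 5 passed, while limma with the block called none without replicate 2 and 3 without replicate 3. Collagen I, whose deposition is known to depend on fibronectin fibrils, had the most reads. Its gene col1a1a had 23835, 40286 and 37160 normalized counts at 56 hpf, against 25367, 18562 and 14468 at 48 hpf, a log2 fold change of 0.80 (SE 0.37, adjusted p = 0.312). The other collagen I genes, col1a1b and col1a2, had log2 fold changes of 0.47 (SE 0.42) and 0.78 (SE 0.40). All 3 overlapped between the stages.

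A pair of matrix genes was chosen after their values were seen because they lay at opposite ends. postna, a periostin, which binds both fibronectin and collagen, had 1382, 3765 and 3991 normalized counts at 56 hpf, against 655, 574 and 434 at 48 hpf. Its log2 fold change was 2.33 (SE 0.39), with an adjusted p of 0.0551 in limma with the block and 0.0219 without it, and the stages did not overlap. tnc, which encodes tenascin C, known to loosen cell attachment to fibronectin, had 3003, 2923 and 2789 at 56 hpf, against 13933, 8217 and 3331 at 48 hpf. The stages did not overlap for tnc either, with the 48 hpf pools far apart, and its log2 fold change was -1.32 (SE 0.36, adjusted p = 0.132).

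Inside the cell, adaptor proteins link integrins to actin. Of the 35 adaptor symbols 21 were found, as 22 gene rows, and 20 were tested. The other 2 rows, parvab and a row of pxna, had at most 1 read in any pool. None of the 20 passed the adjusted threshold in limma with or without the block, and the median log2 fold change was -0.01. At an unadjusted p under 0.05, 2 were higher and 2 lower, against 11.1% and 7.42% of all genes. The quasi-likelihood test with the block called 0, while the likelihood ratio test and DESeq2 called 1 each, and without replicate 1 limma called 3. The members with the most reads were tns1 (tensin), tln1 (talin) and rsu1 (a partner of the ILK complex), with log2 fold changes of -0.25, 0.01 and -0.62 (SE 0.24, 0.20 and 0.22). tln1, which encodes the protein that activates integrins from inside, had 5029, 7017 and 5856 normalized counts at 56 hpf, against 5174, 6372 and 6099 at 48 hpf. These ranges overlapped nearly completely.

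Proteases and their inhibitors set how long fibronectin remains in the matrix. Of 21 symbols 18 were found and 16 were tested, plaua and serpinf2a being below the filter. None passed the adjusted threshold in limma with or without the block, and the median log2 fold change was 0.49. At an unadjusted p under 0.05, 4 were higher and 1 lower, against 11.1% and 7.42% of all genes. The quasi-likelihood test with the block called 0, the likelihood ratio test 1 and DESeq2 2. With the block, limma called 2 without replicate 1 and 1 without replicate 3. mmp2, a gelatinase that also cuts fibronectin, had 3036, 4464 and 4271 normalized counts at 56 hpf, against 2504, 2114 and 2195 at 48 hpf. Its stages did not overlap, and its log2 fold change was 0.77 (SE 0.23, adjusted p = 0.145). The membrane proteases mmp14b and mmp14a had log2 fold changes of 0.52 (SE 0.22) and 0.23 (SE 0.27), and both overlapped.

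The study concerns the flow-responsive transcription factor klf2a in the AVC, so the last list held flow and AVC genes. All 20 gene rows found for 18 of its 20 symbols were tested and none passed the adjusted threshold in limma with the block. At an unadjusted p under 0.05, 4 were higher and 7 lower, against 11.1% and 7.42% of all genes, and the median log2 fold change was -0.25. Without the block limma called 1, the quasi-likelihood test with the block 0, the likelihood ratio test 6 and DESeq2 4. Without replicate 1 at both stages 9 passed, while limma with the block called none without replicate 2 and 1 without replicate 3. Over all genes, 2035, 26 and 550 passed in these fits. The members with the most reads were alcama, an adhesion molecule that marks AVC endocardium and is also expressed in myocardium (-0.84, SE 0.31, adjusted p = 0.219), notch1b, the endocardial Notch receptor (-0.56, SE 0.31, adjusted p = 0.377), and vcana, a versican (-1.05, SE 0.41, adjusted p = 0.243).

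klf2a, chosen here because the study is about it, had 1196, 2736 and 2170 normalized counts at 56 hpf, against 464, 788 and 1234 at 48 hpf. Replicate 3 at 48 hpf lay above replicate 1 at 56 hpf, so the stages of klf2a overlapped, unlike those of fn1b. Its log2 fold change was 1.32 (SE 0.23). Its adjusted p of 0.0625 was smaller than the 0.0809 of fn1b in the same limma fit with the block. In limma without the block it was the larger one, at 0.113 against 0.0210 for fn1b. The likelihood ratio test with the block gave 0.000445 for klf2a against 3.22e-05 for fn1b. At 48 hpf the order of the pools was the opposite for these genes: replicate 1 had the most fn1b and the least klf2a, and replicate 3 the least fn1b and the most klf2a. The klf2a order was also that of the endocardial sums at 48 hpf (21964, 30765 and 40506) and of the myocardial sums (261865, 586789 and 705450). The fn1b order at 48 hpf was that of the epidermal sums (468179, 366134 and 184674). These matches did not hold at 56 hpf. There klf2a was lowest in replicate 1 and highest in replicate 2. The endocardial sums (24105, 19756 and 21201) and myocardial sums (276120, 247745 and 257962) had the opposite order. The epidermal sums (485428, 800486 and 755185) had the order of klf2a, while fn1b was highest in replicate 3. The part of tissue content in these orders was not tested. The study reported a rise of klf2a between the stages by sequencing and by qPCR. It also reported loss of fn1b mRNA in most klf2a mutants, and fibronectin beyond the AVC when klf2a expression was forced. The order of bulk pools is no test of that link. There were 71.1, 49.5 and 76.9 fn1b reads for each klf2a read at 56 hpf, against 78.4, 28.1 and 13.6 at 48 hpf, and these ranges overlapped.

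Of 13 markers of epidermis, which is not part of the heart, 12 had a positive fitted log2 fold change and krt8 had -0.07, and the pools of 6 overlapped between the stages. Of the 13, 1 passed the adjusted threshold as higher, against 0.87% of all genes (krt15, a keratin, log2 fold change 3.64, SE 0.44, adjusted p = 0.0223, limma). At an unadjusted p under 0.05, 7 were higher and 0 lower, against 11.1% higher among all genes. The pools of 7 did not overlap and were higher at 56 hpf, against 13.1%. Their summed level was 485428 to 800486 normalized counts at 56 hpf and 184674 to 468179 at 48 hpf, and none of the 13 was at 0. The quasi-likelihood test with the block called 1, the likelihood ratio test 6 and DESeq2 9. Limma called 10 without replicate 1, none without replicate 2 and 2 without replicate 3, where 2035, 26 and 550 genes passed in all. Without the block 3 passed, and 7 when replicate 1 at 48 hpf was also left out, where 560 and 1187 genes passed in all. Among the 48 hpf pools the order of the epidermal sum, with replicate 1 highest and replicate 3 lowest, was that of fn1b. At 56 hpf the orders differed, with the epidermal sum highest in replicate 2 and fn1b highest in replicate 3. In these bulk pools, more cells of a type and more RNA in each cell cannot be told apart.

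Set against these markers pool by pool, fn1b was higher at 56 hpf relative to the list as a whole. Its ratio to krt5 overlapped between the stages, and krt15 rose more than fn1b did. The mean log2 level of the 13 markers was 1.33 higher at 56 hpf, and fn1b relative to that mean was 2.99, 2.98 and 3.32 at 56 hpf, against 2.00, 1.90 and 2.23 at 48 hpf, with no overlap and a difference of 1.06. Relative to tp63, the transcription factor of basal keratinocytes, there were 17.7, 27.2 and 24.0 fn1b reads per read at 56 hpf, against 9.88, 11.7 and 12.1 at 48 hpf. Relative to cdh1, the epithelial cadherin, there were 17.6, 21.0 and 29.0 at 56 hpf, against 9.93, 7.50 and 7.71 at 48 hpf. Relative to krt5 the stages overlapped, with 2.05, 1.34 and 1.53 at 56 hpf, against 1.58, 1.08 and 1.50 at 48 hpf. krt5 itself had 41605, 101009 and 109122 normalized counts at 56 hpf, against 23074, 20498 and 11217 at 48 hpf (log2 fold change 2.14, SE 0.50, adjusted p = 0.0945). krt15 had 1093, 2825 and 1955 at 56 hpf, against 236, 119 and 109 at 48 hpf. Its log2 fold change of 3.64 was larger than the 2.38 of fn1b, while 12 of the 13 markers had a smaller one than fn1b. These reference genes were chosen after their values were seen, and the part of epidermal tissue in the fn1b result was not tested.

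The endocardium is the layer in which the valve forms. All 12 markers of endocardium and endothelium tested had a fitted log2 fold change below 0, with a median of -0.46, but 11 of them overlapped between the stages and 1 reached an unadjusted p under 0.05, against 7.42% lower among all genes. That gene also passed the adjusted threshold, against 0.211% of all genes as lower (flt1, a VEGF receptor, -1.51, SE 0.23, adjusted p = 0.0393, limma). The quasi-likelihood test with the block called none of the 12, and limma called none without replicate 2 and 4 without replicate 1. Their summed level was 19756 to 24105 normalized counts at 56 hpf and 21964 to 40506 at 48 hpf, and none was at 0. The mean log2 level of fn1b relative to this list was higher by 2.90 at 56 hpf. There were 11.8, 23.2 and 24.9 fn1b reads for each read of cdh5, the endothelial cadherin, at 56 hpf, against 6.43, 2.36 and 1.26 at 48 hpf. The 11 myocardial markers also all had negative log2 fold changes, with a median of -0.60 and 0 past the adjusted threshold. At an unadjusted p under 0.05, 2 of them were lower, against 7.42% of all genes. The quasi-likelihood test with the block called 0 of the 11 and DESeq2 called 2. Limma without the block and the likelihood ratio test with it called 1 each as lower. In both it was vmhc, with adjusted p of 0.0457 and 0.000177. Without replicate 1 at both stages 7 of the 11 passed, in a fit where 2035 genes passed in all. Without the block, 4 passed when replicate 1 at 48 hpf alone was left out, where 1187 genes did. Their summed level was 247745 to 276120 at 56 hpf and 261865 to 705450 at 48 hpf.

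**Figure D4:**
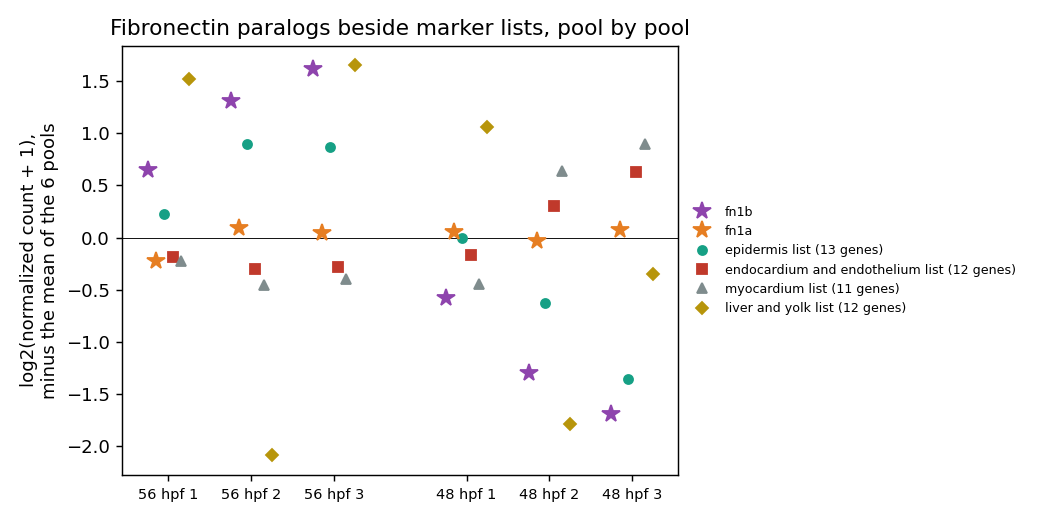
log2 of the normalized count plus 1, minus its mean over the 6 pools, for fn1b and fn1a (stars) and for the mean of 4 marker lists, in each pool, with the 56 hpf pools on the left and the 48 hpf pools on the right. fn1b and the epidermis list sit higher at 56 hpf than at 48 hpf, fn1a stays near 0, and the endocardial and myocardial lists sit higher in replicates 2 and 3 at 48 hpf.

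Further layers of the heart were read from their own lists. The epicardium covers the heart, and of its 5 markers tested none passed the adjusted threshold in limma with or without the block or in the quasi-likelihood test, while the likelihood ratio test and DESeq2 called 2 each, as did limma without replicate 1 and without replicate 3. At an unadjusted p under 0.05, 3 were higher, against 11.1% of all genes, and the median log2 fold change was 0.90. tbx18, a transcription factor of the epicardium (1.45, SE 0.28, adjusted p = 0.0712), and aldh1a2, which makes retinoic acid (1.15, SE 0.24, adjusted p = 0.0796), did not overlap between the stages. The summed level of the 5 was 2383 to 3037 normalized counts at 56 hpf and 1024 to 1996 at 48 hpf.

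Of 15 genes of arch mesenchyme, outflow tract and smooth muscle, 1 passed the adjusted threshold as higher, against 0.87% of all genes. It was elnb, an elastin (6.66, SE 0.51, adjusted p = 0.00679, limma). At an unadjusted p under 0.05, 8 were lower, against 7.42% of all genes, and the median was -0.57. Without replicate 1 and without replicate 3 limma called 3 each. Their summed level was 9590 to 11444 at 56 hpf and 14351 to 16368 at 48 hpf, and fn1b relative to the mean log2 level of the list was 2.41 higher at 56 hpf, with no overlap. Of 9 neural genes tested none passed in limma with the block or in the quasi-likelihood test, 1 did without the block and 2 in DESeq2. With the block, limma called 1 without replicate 1. At an unadjusted p under 0.05, 3 of the 9 were higher, against 11.1% of all genes. The summed level of the neural list was 1019 to 1857 at 56 hpf and 620 to 1072 at 48 hpf.

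Genes of other tissues near the heart also differed between stages. Of 20 skeletal muscle markers 10 passed the threshold as higher at 56 hpf, against 0.87% of all genes, with a median log2 fold change of 2.86, and their summed level was 37901 to 50664 at 56 hpf and 22034 to 39458 at 48 hpf. The quasi-likelihood test with the block called 8, and limma called 3 without replicate 2. Of 11 cartilage markers 5 passed, all higher, against 0.87% of all genes. Their summed levels were 14259 to 18265 at 56 hpf and 5958 to 14785 at 48 hpf. The quasi-likelihood test called 3 of them, and limma 1 without replicate 2. fn1b relative to the mean log2 level of the muscle list differed by -0.33 between stages, and relative to the cartilage list by 0.70, and in both cases the stages overlapped. Plasma fibronectin is made by the liver, and the 12 liver and yolk markers tested had 0 past the adjusted threshold in limma and in the quasi-likelihood test and 2 in DESeq2. With the block, limma called 1 of them without replicate 1. Without the block it called 2 when replicate 2 at 56 hpf was left out. At an unadjusted p under 0.05, 5 of the 12 were higher and 0 lower at 56 hpf, against 11.1% and 7.42% of all genes. The summed levels of this list were 2582 to 43625 at 56 hpf and 3825 to 15015 at 48 hpf. At most 3 reads in any pool came from ahsg, and fabp10a, hpx, vtg1 and vtg2 did not pass the filter. Both replicate 2 pools had the lowest liver and yolk sum of their stage, 2582 at 56 hpf and 3825 at 48 hpf, while fn1b lay between the other replicates in both. Of 10 blood genes 4 passed, all lower at 56 hpf, against 0.211% of all genes, with summed levels of 6082 to 22967 at 56 hpf and 36901 to 58931 at 48 hpf. The quasi-likelihood test called 3 of them, and limma 1 without replicate 2 and 9 without replicate 3. The part of these tissues in the fn1b result was not tested.

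The genes whose levels over the 6 pools were most like fn1b were sought among 12518 genes tested with a mean normalized count of at least 100, with Pearson's r on the log2 values as the measure. The 5 closest were agpat9l, ptprz1a and sec23b (r = 0.998 each), midn (0.997) and traf3ip2l (0.996). A difference between the stages raises r over 6 pools, and 39 genes exceeded 0.99, so these values describe the pattern only. As r over these same pools was the criterion, the 5 closest genes had the order of fn1b within each stage. They rose from replicate 1 to replicate 3 at 56 hpf and fell from replicate 1 to replicate 3 at 48 hpf. sec23b, a subunit of the COPII coat that carries secretory cargo out of the endoplasmic reticulum, had 5210, 7252 and 8466 normalized counts at 56 hpf, against 2013, 1255 and 964 at 48 hpf. Its stages did not overlap. Its log2 fold change was 2.34 (SE 0.33), and it passed the threshold (adjusted p = 0.0351, limma), as did traf3ip2l (1.76, adjusted p = 0.0483, limma). Both were picked for likeness to fn1b, whose stages did not overlap, so these p-values are no separate result. In the quasi-likelihood test with the block neither passed, with adjusted p of 0.0538 for sec23b and 0.0605 for traf3ip2l, nor did they in limma without replicate 2 (adjusted p = 0.243 for sec23b and 0.369 for traf3ip2l). For fn1a the 5 closest were asnsd1 (0.996), brap (0.980), znhit1 (0.976), si:dkey-5n18.1 (0.972) and pdss2 (0.967), and 1 gene exceeded 0.99. The smallest adjusted p among these 5 was 0.570 (limma).

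The paralogs sit in related neighbourhoods. In the gene order of the GRCz12tu assembly, which is not the Zv9 assembly used for the counts and was used for order only, the 5 protein-coding genes on each side of fn1b include nrp2a, pard3ba and abcb6a, and those around fn1a include nrp2b, pard3bb and abcb6b. Of the 10 neighbours of fn1b 8 were tested, with log2 fold changes of -0.33 to 1.29, and 0 passed the adjusted threshold in limma with or without the block, in edgeR's quasi-likelihood and likelihood ratio tests or in DESeq2, nor did any reach an unadjusted p under 0.05 (smallest adjusted p = 0.286, limma). The gene next to fn1b that was tested, atic, a purine synthesis enzyme, had 503, 261 and 1040 normalized counts at 56 hpf, against 772, 474 and 246 at 48 hpf, a log2 fold change of 0.20 (SE 0.54) with overlapping stages. Of the 10 neighbours of fn1a 4 were tested, with log2 fold changes of -0.92 to -0.03, and 0 passed in limma, the quasi-likelihood test and DESeq2, 1 in the likelihood ratio test and 1 at an unadjusted p under 0.05 (ENSDARG00000095580, 4 genes before fn1a in that order, unadjusted p = 0.00701, limma). The neuropilin pair, nrp2a near fn1b and nrp2b near fn1a, had log2 fold changes of -0.33 and -0.35 (SE 0.19 and 0.24). The change of fn1b was larger than that of all 12 tested neighbours.

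Across 21 alternative ways of processing, the log2 fold change of fn1b remained between 1.92 and 2.96 and was positive in each, and its adjusted p ran between 7.79e-09 and 0.640, with 8 of the 21 past the threshold. The value without replicate 1 at both stages was 2.96 (adjusted p = 0.00762), without replicate 2 it was 2.27 (0.640), and without replicate 3 it was 1.92 (0.188), all from limma with the block. Each of these blocked fits leaned heavily on the spread shared over all genes. Without the block, leaving out only replicate 1 at 48 hpf gave 2.69 (0.00630). The log2 fold change of fn1a lay between -0.15 and 0.07, with adjusted p of 0.879 to 0.986.

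**Figure D5:**
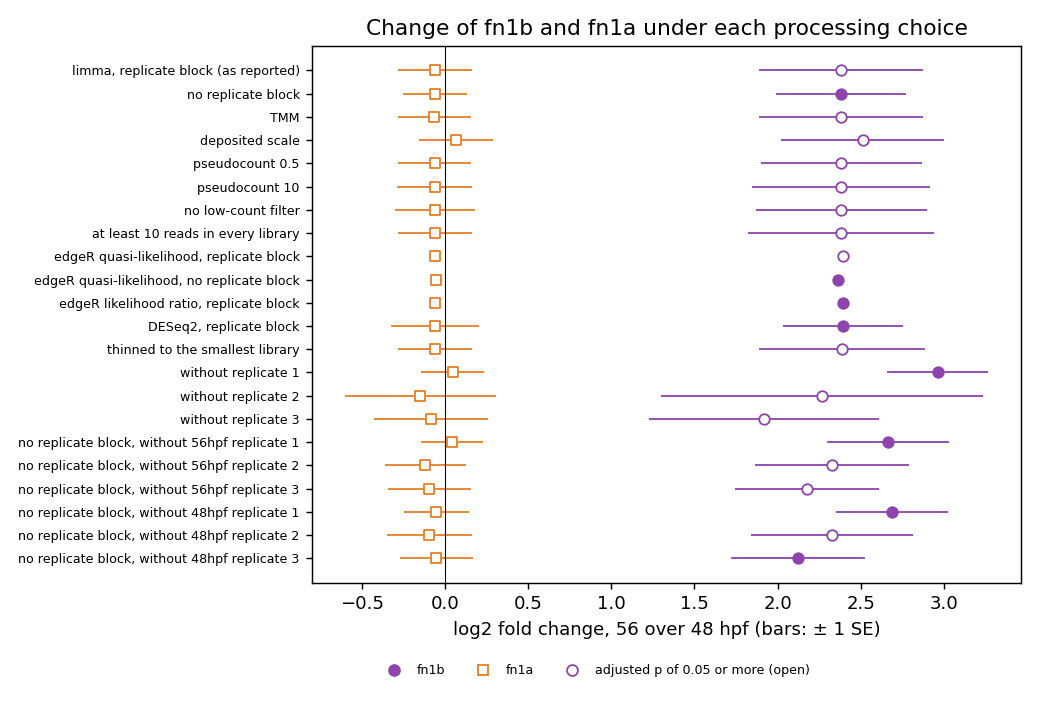
log2 fold change of 56 over 48 hpf for fn1b (purple circles) and fn1a (orange squares) as reported, in the top line, and under each of 21 alternatives, with bars of ± 1 SE where the tool gives one, filled where the adjusted p is under 0.05 and open otherwise. fn1b ranges between 1.92 and 2.96 and fn1a between -0.15 and 0.07, and filled markers occur for fn1b only.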

How the data were processed

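RNA from pools of dissected hearts was sequenced, with 3 libraries at 56 hpf and 3 at 48 hpf. The study's methods state that reads were aligned to Zv9 with Tophat, that unique alignments were kept and that genes were counted with HTSeq on Ensembl annotation. The submitters' processing notes name CASAVA 1.8.2, Bowtie2 2.1.0, HTSeq 0.5.4p3 and DESeq 1.10.1. Whether counting used the strand is not given in the sources used here. The deposited values are a signal, which the authors made by dividing read counts by size factors. Whole reads were recovered for 100% of the values (tolerance 1e-06).

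Recovered reads were divided by median-of-ratios factors drawn from the 6 libraries. Genes were kept by filterByExpr (minimum count 10, minimum total 15), and log2(normalized count + 1) was fitted with limma 3.58.1 (trend in the prior variance) under R 4.3.3. The replicate number was a block because the methods adjust for differences between experiments; that the number is the experiment is an inference. Benjamini-Hochberg adjustment ran over all genes kept, and 0.05 was the threshold. edgeR 4.0.16 and DESeq2 1.42.0 on the recovered reads were alternatives, and the fits were tested on simulated counts, where they recovered the fold changes set, while the share of false calls was above the threshold in every fit, so calls near it are uncertain. Shares and sums were compared by exact permutation (SciPy 1.17.1). Genes named were fn1a and fn1b, list members past the threshold (at most 5 per list), the 3 members of each list with the most counts (both for the 5 lists of fibronectin partners and flow genes, of which none held a called member), and the 5 genes most like each paralog. Cell type markers were given by counts. Every other gene named was chosen after its values were seen. The members and lists were chosen with earlier results of these data known.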

Additional observations from a re-analysis of the deposited data

How the results depend on the processing

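fn1b passed the threshold without the replicate block (log2 fold change 2.38, adjusted p = 0.0210), in the likelihood ratio test (2.39) and in DESeq2 (2.39), both with the block, and in the quasi-likelihood test without the block (2.36, adjusted p = 0.0254). Leaving out replicates gave 1.92 to 2.96, past the threshold in 4 of 9 fits: without replicate 1 (2.96), and without the block when replicate 1 at 56 hpf (2.66), replicate 1 at 48 hpf (2.69) or replicate 3 at 48 hpf (2.12) was left out. TMM scaling, the deposited scale, the pseudocounts, the filters, thinning to the smallest library and the quasi-likelihood test with the block did not change its side, with adjusted p of 0.0608 to 0.0985. The change of fn1a turned positive on the deposited scale (0.0661), without replicate 1 (0.0472) and without the block when replicate 1 at 56 hpf was left out (0.0412), over a range of -0.149 to 0.0472 for left-out replicates.

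The number of genes past the threshold, 225, became 560 without the block, 346 with no filter on low counts, 136 with at least 10 reads in every library, 516 in the quasi-likelihood test without the block, 1741 in the likelihood ratio test, 1503 in DESeq2, and 26 (without replicate 2) to 2035 (without replicate 1) when replicates were left out. Without the block, leaving out replicate 1, 2 or 3 at 56 hpf gave 775, 97 and 112 genes, and at 48 hpf 1187, 132 and 512 genes. The share difference was 16.9 to 24.4 points and the log2 ratio of summed levels 1.81 to 2.30 with 1 pool left out. For the replicate block, the exact sign-flip permutation test over same-numbered pairs gave p = 0.25, the smallest it allows, for the share difference of 20.6 points. Deviations of same-numbered pools correlated with r of 0.03, 0.19 and -0.05 across 20805 genes for replicates 1, 2 and 3. Pools with different numbers gave -0.16 to 0.09, with 0.05 for replicate 3 at 56 hpf and replicate 1 at 48 hpf. With 3 pools a stage these values cannot decide whether equal numbers mark a shared experiment. Dividing by transcript length was not run, as no lengths were used here. With 3 pools a stage, counting error is small beside the spread between pools.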

Other observations

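After sec23b was seen among the genes most like fn1b, the other genes of the COPII coat, which packs secretory cargo such as matrix proteins, were read as a list chosen after the data were seen, so it gets no test. Of its 11 genes, sec23b was the 1 past the adjusted threshold in limma, while the quasi-likelihood test with the block called none, 10 had a positive log2 fold change, and the median was 0.38, against -0.01 for all genes tested. Pools of 5 of them did not overlap between the stages and were higher at 56 hpf, where 13.1% of all genes tested were. All these counts include sec23b, whose likeness to fn1b led to the list, so no excess over all genes can be read from them. sec24d, a cargo-binding subunit, had 1119, 1086 and 1077 normalized counts at 56 hpf, against 923, 531 and 481 at 48 hpf (log2 fold change 0.82, SE 0.23, adjusted p = 0.136). sec31b, of the outer coat, had 1886, 1979 and 2501 at 56 hpf, against 1400, 1222 and 997 at 48 hpf (0.82, SE 0.23, adjusted p = 0.134). sec23a, the paralog of sec23b, had 1319, 1321 and 1312 at 56 hpf, against 1283, 1205 and 1003 at 48 hpf (0.19, SE 0.19, adjusted p = 0.629).

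klf4a, a further flow-responsive factor of the Krüppel-like family, had 521, 638 and 742 normalized counts at 56 hpf, against 283, 247 and 121 at 48 hpf, with no overlap (log2 fold change 1.62, SE 0.34, adjusted p = 0.0822 with the block and 0.0409 without it, limma). Its pools at 48 hpf had the same order as those of fn1b, with replicate 1 highest and replicate 3 lowest, and the order opposite to that of klf2a. The epidermal sum at 48 hpf also fell from replicate 1 to replicate 3 (468179, 366134 and 184674). At 56 hpf klf4a was highest in replicate 3, as fn1b was, while the epidermal sum was highest in replicate 2. The part of epidermal tissue in the klf4a result was not tested.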
